A study of Homo sapiens with 22 samples.

Results

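The mitosis genes followed here are 41 genes whose products carry a cell into and through division, listed by symbol for their known role; no measured value entered the rule, though earlier results of these data were known when it was written. All 41 were among the 28063 gene symbols counted in each library, and all 41 were among the 16794 genes that passed the filter on low counts. RNA-seq libraries numbered 22, with 2 in each of 11 groups, from the human acute myeloid leukaemia lines THP-1, MV-4-11 and MOLM-13. These 3 established lines carry KMT2A fusions. All libraries are labelled WT, all cells grew in RPMI medium with serum, and polyadenylated RNA was sequenced.

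The treated groups of each line received 1 µM BRM014, which blocks the ATPases SMARCA2 and SMARCA4 that power SWI/SNF remodellers of chromatin, for 24 h or for 72 h. THP-1 had a group given 3 µM DB2313, a small molecule that inhibits PU.1, for 72 h. A further THP-1 group received 10 nM phorbol 12-myristate 13-acetate (PMA), which drives monocytic cells towards macrophages, for 48 h and then 24 h without it. Controls of each line received dimethyl sulfoxide (DMSO), the solvent. How long each DMSO library was cultured is not in the labels, and both times of a line were set against the same DMSO pair. Nothing in the labels says that the libraries of a group were separate cultures, nor that DB2313 and DMSO cells were handled side by side. Spread within pairs, on which the p-values rest, may thus be technical only.

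Mitosis begins when the kinase CDK1, bound to A- and B-type cyclins and released by CDC25 phosphatases, becomes active, with PLK1 and the Aurora kinases beside it. Kinetochores then attach chromosomes to the spindle, the spindle checkpoint holds the cell until all are attached, and the anaphase-promoting complex with CDC20 releases sister chromatids. Most of these genes are transcribed late in the cell cycle, under the DREAM, B-MYB and FOXM1 complexes, which act at a promoter element called the cell cycle genes homology region (CHR), and under NF-Y, which binds CCAAT boxes. In blood cells their transcripts are used as a measure of how much of a population is cycling. In bulk RNA, fewer dividing cells and less RNA per dividing cell cannot be told apart.

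The promoters of the mitosis genes shared sequence elements that were not used to choose them. RefSeq promoter windows on GRCh38.p14, from 250 bases before to 50 bases after a gene's start, were at hand for 35 of the 41 genes, as 45 windows. TTTGAA or TTCGAA, the CHR-like letters, stood on either strand in 68.9% of the members' windows, against 16.4% of all 35116 windows of the table. CCAAT, on either strand, stood in 75.6% of members' windows and 34.6% of all windows. At least 2 copies of CCAAT were found in 44.4% of members' windows and 10.8% of all windows. Both kinds of motif were found in 57.8% of members' windows, against 6.38% of all windows. TTCGAA reads the same on both strands and was counted once, TTTGAA is read as TTCAAA on the other strand, and neighbouring CCAAT and ATTGG can share letters. Windows were not used for TPX2, FOXM1, BIRC5, TTK, AURKA and UBE2C. All windows are those of 27305 symbols, not only of genes that passed the filter on low counts. These matches are letters in a window and no measurement of binding.

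The windows of 4 genes on which the results below turn are printed 5′ to 3′ on the gene's strand (plus strand for all 4), with the matched letters in capitals. CCAAT is read as ATTGG where it lies on the other strand. PLK1 (chr16:23678639-23678938) and CCNB2 (chr15:59104896-59105195) fell with BRM014 at 72 h in every line, and both hold a CHR-like motif 29 bases before the start. KIF20A (chr5:138178862-138179161) also fell with BRM014 at 72 h in every line, and had the largest fall with DB2313. It holds 2 CCAAT boxes and no CHR-like letters in this window. Whether the motifs go with the response to a treatment was not tested. CDC25B (chr20:3796060-3796359) rose with BRM014 at 72 h in 2 lines, where nearly all other members fell. The third of the 4 windows of CDC25B holds a CHR-like motif 38 bases before the start and a CCAAT box 73 bases before it.
PLK1: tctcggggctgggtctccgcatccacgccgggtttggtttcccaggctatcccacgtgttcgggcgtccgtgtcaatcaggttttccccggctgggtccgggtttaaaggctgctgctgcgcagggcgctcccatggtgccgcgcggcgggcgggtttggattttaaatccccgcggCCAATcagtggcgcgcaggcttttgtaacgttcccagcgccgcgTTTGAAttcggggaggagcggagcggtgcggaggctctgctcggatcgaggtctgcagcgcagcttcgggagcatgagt
CCNB2: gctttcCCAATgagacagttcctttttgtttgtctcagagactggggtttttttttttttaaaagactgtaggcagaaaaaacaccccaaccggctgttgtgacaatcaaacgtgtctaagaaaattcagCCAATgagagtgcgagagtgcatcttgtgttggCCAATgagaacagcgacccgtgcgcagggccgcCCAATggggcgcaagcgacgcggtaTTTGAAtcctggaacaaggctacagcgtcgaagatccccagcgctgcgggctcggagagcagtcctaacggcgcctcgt
KIF20A: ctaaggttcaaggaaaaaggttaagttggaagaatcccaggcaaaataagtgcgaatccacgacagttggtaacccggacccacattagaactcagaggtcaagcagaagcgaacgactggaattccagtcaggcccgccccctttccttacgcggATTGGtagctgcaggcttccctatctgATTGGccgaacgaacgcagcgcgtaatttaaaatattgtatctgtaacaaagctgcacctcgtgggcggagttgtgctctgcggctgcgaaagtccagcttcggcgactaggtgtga
CDC25B: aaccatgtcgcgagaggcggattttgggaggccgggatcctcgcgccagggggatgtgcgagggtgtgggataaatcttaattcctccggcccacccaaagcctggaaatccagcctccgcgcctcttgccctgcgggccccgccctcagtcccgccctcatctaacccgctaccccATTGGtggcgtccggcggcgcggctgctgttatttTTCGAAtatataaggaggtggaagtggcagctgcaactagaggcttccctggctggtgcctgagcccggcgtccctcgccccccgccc

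Libraries held 15893489 to 21565666 reads in genes. Levels are given as CPM, a gene's count scaled to the reads in genes of its library in the usual way. No mitosis gene was at 0 in any library; the lowest value was 1.38 CPM, of SPC25. The myeloid markers PTPRC (82.5 to 679 CPM) and SPI1, the gene of PU.1 (52.6 to 440 CPM), were present in every library. Others of the list were low in places. CSF1R and CD14 were each at 0 in 1 library, with medians of 2.58 and 1.66 CPM. MPO and ITGAM went down to 1.22 and 0.649 CPM. Fold changes are log2 values ± standard error from 1 fit of all libraries in edgeR, scaled by its TMM factors, which CPM do not include. A gene was called, and is said to have risen or fallen, at an adjusted p under 0.05 (quasi-likelihood test, Benjamini-Hochberg over all genes tested). Where groups are said not to overlap, or 1 to lie above or below another, this only describes the libraries of genes mostly named for called changes. It is no further support, and its share among all genes was not counted. Summed over the 41 genes, THP-1 stood at 6599 and 6611 CPM with DMSO, MV-4-11 at 4883 and 4649 CPM, and MOLM-13 at 4326 and 3932 CPM. The line difference was widest for CDC20, the activator of the anaphase-promoting complex, at 876 and 879 CPM in THP-1 DMSO libraries, 150.1 and 150.5 CPM in those of MV-4-11 and 120.4 and 137.7 CPM in those of MOLM-13. Levels of the lines in DMSO were not tested against each other. For 13 members, reads in an overlap with another counted gene (GENCODE v29) may be left uncounted as ambiguous or be counted for either gene. These are CCNA2, CDC25C, PLK1, FOXM1, HMMR, CENPA, NUF2, SPC25, BUB1B, KIF20A, KIF4A, PRC1 and ANLN. Reads may be shared with a named pseudogene for 7, CCNB2, AURKA, DLGAP5, BUB1, CDC20, UBE2C and MKI67.

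**Figure D1:**
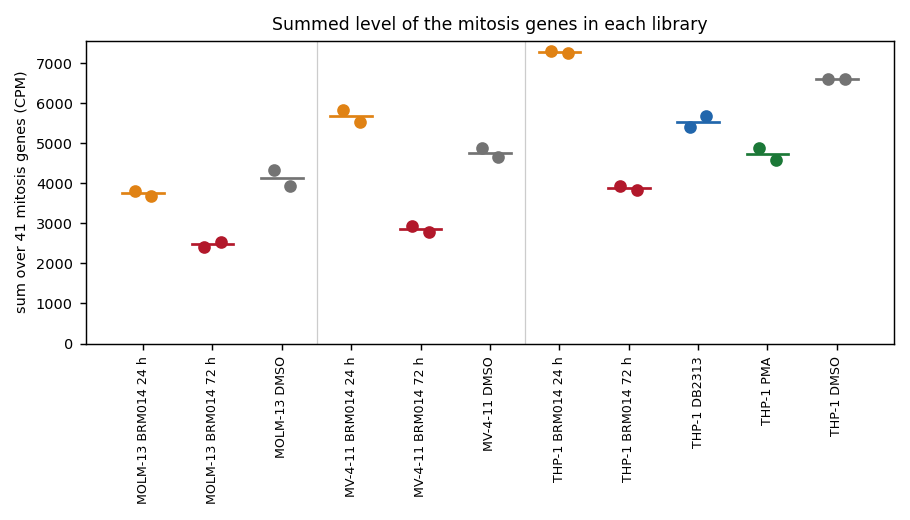
Summed level of the 41 mitosis genes in CPM (vertical axis) for each library (points) of the 11 groups, with bars at the group mean of 2 libraries. The 72 h BRM014 libraries lie at 2411 to 3937 CPM, below the DMSO libraries of their own line, while the 24 h libraries of MV-4-11 and THP-1 lie above theirs.

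After 72 h of BRM014 nearly the whole set was lower in each line. In MOLM-13, 37 of 41 genes fell and 1 rose, where 29.4% of all genes fell and 30.3% rose; the median of the 41 was -1.005 and of all genes 0. In MV-4-11, 38 fell and 1 rose, beside 26.1% and 28.4% of all genes, with a median of -0.77. In THP-1, 39 fell, beside 28.0% of all genes, with a median of -0.87. No member rose there by edgeR or DESeq2, against 30.9% of all genes, and CDC25B was higher at an unadjusted p under 0.05; 1 member rose without replicate 2 at 72 h. The genes that fell in all 3 lines numbered 36, where 14.5% of all genes did so. Leaving out 1 library at a time gave 33 to 38 such genes. The summed level was 2411 and 2539 CPM in MOLM-13 at 72 h, against 4326 and 3932 CPM with DMSO. It was 2925 and 2775 CPM against 4883 and 4649 CPM in MV-4-11, and 3937 and 3829 CPM against 6599 and 6611 CPM in THP-1.

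Among genes of mitotic entry, 7 of 8 fell at 72 h in each line. PLK1, the kinase that drives centrosome maturation and mitotic entry, had 46.0 and 48.2 CPM in MOLM-13 at 72 h, against 130.9 and 141.6 CPM with DMSO, a change of -1.73 ± 0.08 (edgeR adjusted p = 8.6e-14). In MV-4-11 it had 80.2 and 79.9 CPM at 72 h against 198.5 and 196.2 CPM with DMSO (-1.36 ± 0.07). In THP-1 it had 87.7 and 81.0 CPM at 72 h against 204.6 and 205.4 CPM with DMSO (-1.36 ± 0.07). The treated and DMSO libraries of PLK1 did not overlap in any line. CCNB1, the main mitotic B-type cyclin, fell by 1.41 ± 0.08 in MOLM-13, 0.73 ± 0.08 in MV-4-11 and 0.99 ± 0.08 in THP-1. CDK1, its kinase partner, fell by 1.09 ± 0.10, 0.94 ± 0.10 and 0.88 ± 0.10 in the same order of lines. FOXM1, a transcription factor of late cell cycle genes, fell by 0.87 ± 0.11, 0.56 ± 0.11 and 0.89 ± 0.11.

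All 4 spindle checkpoint genes fell at 72 h in all 3 lines, with medians of -1.35 (MOLM-13), -1.34 (MV-4-11) and -1.07 (THP-1). MAD2L1, which encodes the checkpoint protein that sequesters CDC20, had 34.6 and 34.0 CPM in MOLM-13 at 72 h, against 128.7 and 103.5 CPM with DMSO (-1.95 ± 0.09, edgeR adjusted p = 2.8e-13). In MV-4-11 it had 48.8 and 45.3 CPM at 72 h against 119.8 and 125.9 CPM with DMSO (-1.44 ± 0.09), and in THP-1 54.7 and 57.5 CPM at 72 h against 110.9 and 111.0 CPM with DMSO (-1.07 ± 0.09). Each pair of 72 h libraries lay below both DMSO libraries of its line. BUB1B, the kinetochore-bound partner in the same inhibitory complex, fell by 1.59 ± 0.09 in MOLM-13, 1.47 ± 0.09 in MV-4-11 and 1.07 ± 0.09 in THP-1.

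Spindle assembly genes fell in 6 of 6 in each line at 72 h. AURKA, the kinase of centrosomes and spindle poles, had 35.1 and 38.6 CPM in MOLM-13 at 72 h against 78.1 and 80.2 CPM with DMSO (-1.29 ± 0.08). It had 84.5 and 77.0 CPM in MV-4-11 at 72 h against 107.4 and 101.9 CPM with DMSO (-0.43 ± 0.07), the smallest fall of the 3 lines. Its THP-1 values were 66.3 and 71.0 CPM at 72 h against 132.7 and 132.4 CPM with DMSO (-1.03 ± 0.07). Among the anaphase genes all 4 fell in each line. PTTG1, which encodes securin, the inhibitor of separase, fell by 1.69 ± 0.12 in MOLM-13, 0.81 ± 0.12 in MV-4-11 and 0.94 ± 0.12 in THP-1. The gene of separase itself, ESPL1, fell by 0.47 ± 0.09, 0.63 ± 0.09 and 0.24 ± 0.09 in the same order. The THP-1 call of ESPL1 ended with library size alone as the scaling (-0.155), without either replicate at 72 h (-0.24 for each) and without replicate 1 of the DMSO group (-0.17).

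All 4 genes of the chromosomal passenger complex, which corrects kinetochore attachments and then guides cytokinesis, fell in each line at 72 h. Its kinase AURKB had the deepest fall of the set in MV-4-11, at 27.0 and 29.3 CPM at 72 h against 83.4 and 82.6 CPM with DMSO (-1.62 ± 0.13, edgeR adjusted p = 1.3e-09). Of the 7 centromere and kinetochore genes, 5 fell in MOLM-13 and 6 each in MV-4-11 and THP-1. KIF2C, a kinesin that depolymerises microtubules at kinetochores, had the deepest fall in THP-1, at 84.2 and 84.4 CPM at 72 h against 215.4 and 224.7 CPM with DMSO (-1.47 ± 0.08). CENPA, the histone H3 variant of centromeres, fell by 1.28 ± 0.10 in THP-1, 1.19 ± 0.11 in MOLM-13 and 0.67 ± 0.10 in MV-4-11. Cytokinesis genes fell in 5 of 6 in MOLM-13 and 6 of 6 in each other line, with medians of -0.61 (MOLM-13), -0.46 (MV-4-11) and -0.61 (THP-1).

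Few members stood outside the fall at 72 h. SPC25, described below for its disagreeing replicates, was not called against DMSO at 72 h in any line. CENPE, a kinetochore motor, was at -0.48 ± 0.21 in MOLM-13 (edgeR adjusted p = 0.0523), and was called by DESeq2 (adjusted p = 0.0365), without replicate 2 at 72 h (-0.63) and without replicate 2 of the DMSO group (-0.71). ANLN, an actin-binding protein of the cleavage furrow, was at -0.19 ± 0.13 there (adjusted p = 0.244) and fell without replicate 2 of the DMSO group (-0.43). MKI67, the proliferation marker Ki-67, was at -0.20 ± 0.09 in MV-4-11 (adjusted p = 0.0635, and 0.0415 by DESeq2), fell by 0.45 ± 0.09 in MOLM-13 and fell by 0.81 ± 0.09 in THP-1. TOP2A, the topoisomerase that untangles sister chromatids, fell by 0.92 ± 0.12, 1.04 ± 0.12 and 0.75 ± 0.12 in MOLM-13, MV-4-11 and THP-1. The share of reads assigned to no feature in the counting was 18.2% and 18.4% in MOLM-13 at 72 h, against 13.2% and 12.4% with DMSO. In THP-1 it was 19.2% and 18.8% at 72 h against 16.5% and 15.8% with DMSO. In MV-4-11 it was 13.1% and 13.5% at 72 h against 14.3% and 13.8% with DMSO. The part of this share in the results was not tested. The summed level of 10 myeloid markers was 1749 and 1789 CPM in MOLM-13 at 72 h against 1101 and 1124 CPM with DMSO, 1185 and 1155 CPM in MV-4-11 at 72 h against 1123 and 1106 CPM with DMSO, and 1143 and 1151 CPM in THP-1 at 72 h against 3164 and 3000 CPM with DMSO. In THP-1, 5 fibroblast markers summed to 115.2 and 123.0 CPM at 72 h against 2.19 and 2.57 CPM with DMSO. Of these COL1A1 reached 122 CPM, while COL1A2 and COL3A1 were at 0 in 20 of the 22 libraries. Summed over 5 epithelial markers, THP-1 had 36.5 and 32.5 CPM at 72 h against 1.63 and 1.93 CPM with DMSO. These were KRT8 and CDH1 almost wholly, as EPCAM, KRT18 and KRT19 did not exceed 0.899 CPM in any library. The part of these markers in the results was not tested.

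**Figure D2:**
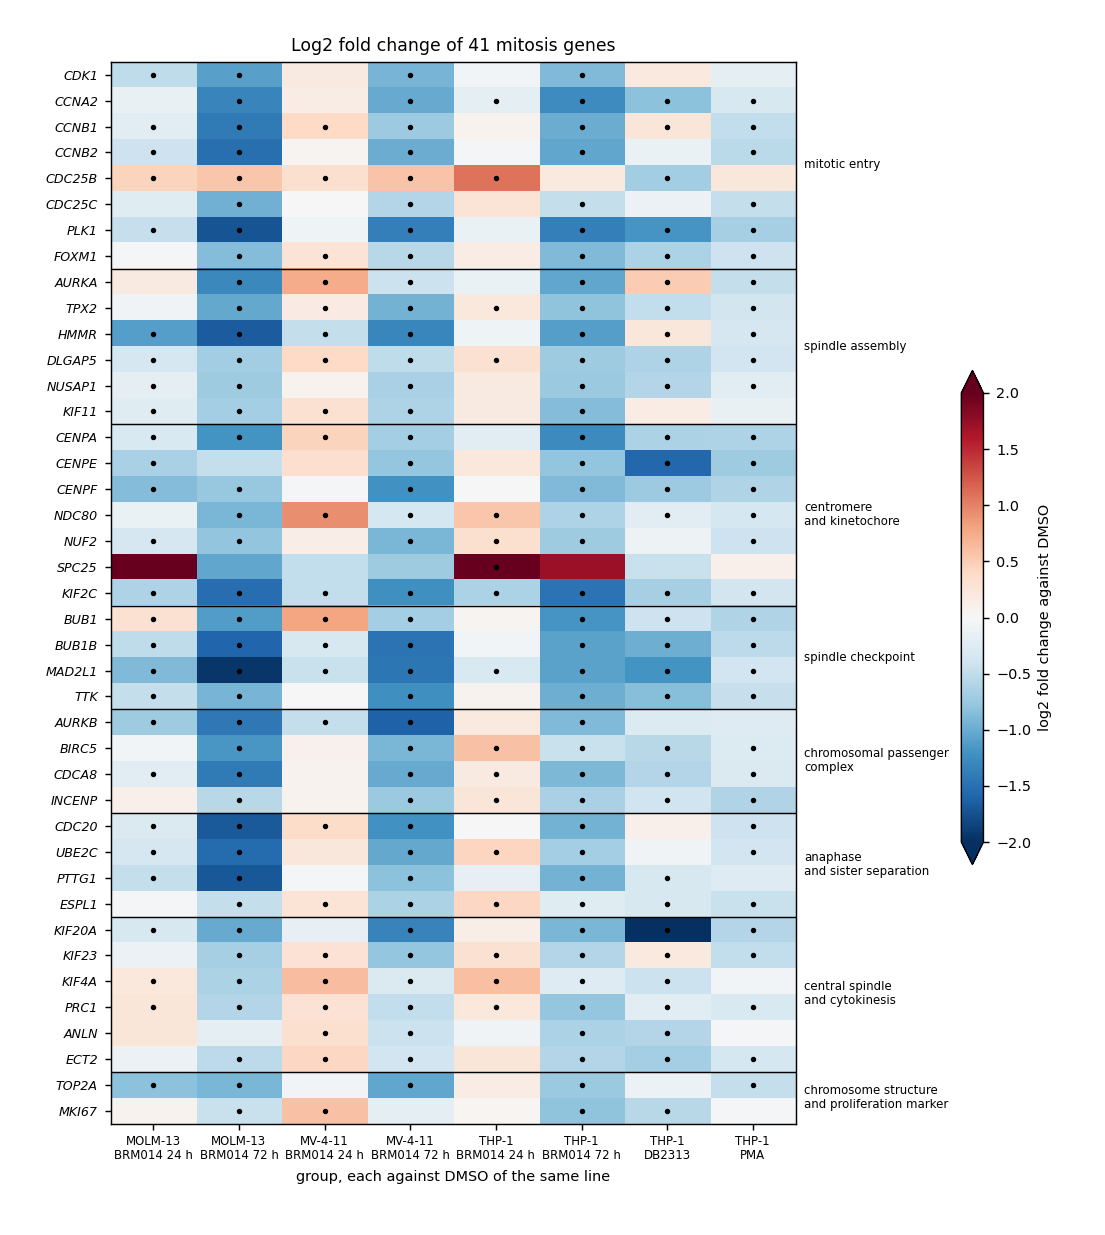
Log2 fold change of each mitosis gene (vertical axis, by role) in each treated group against DMSO of its line (horizontal axis). Colour runs from -2 (blue) to 2 (red), with values beyond these in the end colours, and a dot marks an adjusted p under 0.05. The 72 h columns are blue almost throughout, with 37, 38 and 39 genes lower; the 24 h columns differ between lines, and CDC25B is red at 72 h in MOLM-13 and MV-4-11 where most others are blue.

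At 24 h of BRM014 the lines differed. In MOLM-13, 23 of the 41 genes fell and 4 rose, where 23.5% of all genes fell and 22.7% rose, and the median of the members was -0.25. In MV-4-11, 18 rose and 5 fell, where 23.6% of all genes rose and 22.4% fell, with a median of 0.16. In THP-1, 14 rose and 3 fell, where 25.9% rose and 24.1% fell, with a median of 0.16. With library size alone as the scaling, which moved the median of all genes in MOLM-13 by 0.126, the count there was 13 lower and 7 higher. Without replicate 2 of MOLM-13 at 24 h, 14 fell, without replicate 1 of its DMSO group 15 fell, and without replicate 1 at 24 h 2 rose. Without replicate 1 of MV-4-11 at 24 h, 11 rose. In THP-1, 9 rose and 1 fell without replicate 1 at 24 h, and 8 rose without replicate 1 or without replicate 2 of its DMSO group. Calls that held in every fit with 1 library left out numbered 12 of the 23 falls in MOLM-13, 10 of the 18 rises in MV-4-11 and 7 of the 14 rises in THP-1.

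The test of the difference between lines at 24 h called 33 of the 41 genes, where it called 43.5% of all genes (edgeR F test of both differences). The effect was higher in MV-4-11 than in MOLM-13 for 24 genes, beside 11.8% of all genes. It was lower for none by edgeR or DESeq2, beside 10.3% of all genes, with SPC25 lower at an unadjusted p under 0.05. Between THP-1 and MOLM-13, the effect was higher in THP-1 for 27 genes and lower for 2, AURKA and BUB1, beside 13.2% and 13.4% of all genes. Members that fell in MOLM-13 and rose in MV-4-11 numbered 5, where 1.11% of all genes did so, and those that fell in MOLM-13 and rose in THP-1 numbered 4, beside 1.67%. Without replicate 2 of MOLM-13 at 24 h the difference counts were 15 for MV-4-11 and 17 for THP-1. The THP-1 count was also 15 without replicate 1 of MOLM-13 DMSO and 17 without replicate 1 of THP-1 at 24 h or of its DMSO group. NDC80 (1.05 ± 0.14), CENPE (0.98 ± 0.29) and CENPF (0.84 ± 0.27) had the widest differences between MV-4-11 and MOLM-13. The calls of CENPE and CENPF ended without replicate 1 of MV-4-11 at 24 h (0.46 and 0.36), replicate 2 of MV-4-11 DMSO (0.87 and 0.67), replicate 2 of MOLM-13 at 24 h (0.90 and 0.75) or replicate 1 of MOLM-13 DMSO (0.70 and 0.56). HMMR (1.01 ± 0.14), TOP2A (0.98 ± 0.17) and AURKB (0.90 ± 0.19) had the widest between THP-1 and MOLM-13. The counts of opposite calls were each 1 without replicate 2 of MOLM-13 at 24 h, and that for THP-1 was also 1 without replicate 2 of THP-1 at 24 h or without either DMSO replicate of that line. Each was 2 or 3 without replicate 1 of either MOLM-13 group or replicate 1 of the other line at 24 h. AURKA and BUB1 both lost their call between THP-1 and MOLM-13 without any one THP-1 library or replicate 1 of MOLM-13 at 24 h, and 1 of them without replicate 2 of MOLM-13 DMSO.

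In MOLM-13 at 24 h, 5 of 7 centromere and kinetochore genes fell, as did 4 of 6 spindle assembly, 4 of 8 entry, 3 of 4 checkpoint, 3 of 4 anaphase, 2 of 4 passenger and 1 of 6 cytokinesis genes, and TOP2A. Of all genes 23.5% fell, and the count of 1 of 6 was not above that share. The largest falls came from several roles. HMMR, a microtubule-binding protein of the spindle, had 38.1 and 35.3 CPM at 24 h against 78.2 and 65.7 CPM with DMSO (-1.10 ± 0.10, edgeR adjusted p = 2.7e-08). MAD2L1 had 72.1 and 65.8 CPM at 24 h against 128.7 and 103.5 CPM with DMSO (-0.88 ± 0.09). For CENPF, a large kinetochore protein, the 24 h libraries had 130.4 and 116.1 CPM and the DMSO libraries 245.4 and 167.6 CPM (-0.87 ± 0.20). TOP2A stood at 324.4 and 289.0 CPM at 24 h against 562.7 and 435.1 CPM with DMSO (-0.83 ± 0.12). In none of these 4 genes did the groups overlap, which follows largely from naming the genes for their large called falls. PLK1 (-0.46 ± 0.07), CDK1 (-0.51 ± 0.10) and CCNB1 (-0.23 ± 0.08) fell less. The call of CCNB1 ended with library size alone (-0.11), without replicate 2 at 24 h (-0.16) and without replicate 1 of the DMSO group (-0.21). The genes that rose were CDC25B, BUB1 (0.31 ± 0.07), PRC1 (0.25 ± 0.07) and KIF4A (0.21 ± 0.08). PRC1 and KIF4A, partners in building the central spindle, lost the call without replicate 1 at 24 h, at 0.23 for PRC1 and 0.13 for KIF4A. PRC1 also lost it without replicate 1 of the DMSO group (0.19), and KIF4A without its replicate 2 (0.14). AURKA (0.18 ± 0.07, adjusted p = 0.0565) and MKI67 (0.07 ± 0.09) were not called, and AURKA was called with library size alone (0.31) and without replicate 2 at 24 h (0.24).

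In MV-4-11 at 24 h, 5 of 6 cytokinesis genes rose, as did 4 of 6 spindle assembly, 3 of 8 entry, 2 of 7 centromere and kinetochore, 2 of 4 anaphase and 1 of 4 checkpoint genes, and MKI67. Of all genes 23.6% rose, and the counts of 2 of 7 and 1 of 4 lay near that share. The largest rises came from 3 roles. NDC80, which gives its name to the complex that grips microtubules at the kinetochore, had 63.4 and 64.0 CPM at 24 h against 30.4 and 33.5 CPM with DMSO (0.92 ± 0.10, edgeR adjusted p = 1.3e-07). BUB1, the checkpoint kinase, had 215.5 and 218.6 CPM at 24 h against 120.9 and 119.1 CPM with DMSO (0.78 ± 0.07). AURKA had 176.2 and 192.2 CPM at 24 h against 107.4 and 101.9 CPM with DMSO (0.74 ± 0.07). For each of these the 24 h libraries lay above both DMSO libraries. MKI67 rose by 0.58 ± 0.09 and CCNB1 by 0.40 ± 0.08. PLK1 (-0.09 ± 0.07), CDK1 (0.18 ± 0.10) and TOP2A (-0.05 ± 0.12) were not called. The 5 genes that fell were KIF2C (-0.49 ± 0.08), HMMR (-0.47 ± 0.10), AURKB (-0.47 ± 0.12), MAD2L1 (-0.45 ± 0.09) and BUB1B (-0.32 ± 0.09), and their calls held under every alternative. All 5 also fell in MOLM-13. The 2 MV-4-11 libraries at 24 h disagreed for CENPF, at 388.9 and 218.1 CPM, and for CENPE, at 100.1 and 53.5 CPM. Neither gene was called, while CENPF fell without replicate 1 at 24 h (-0.505) and CENPE rose without replicate 2 (0.71).

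In THP-1 at 24 h, 3 of the 4 chromosomal passenger genes were called higher, of which only BIRC5 held under every alternative. CDCA8 (0.18) lost its call by DESeq2, without replicate 2 at 24 h and without either DMSO replicate, and INCENP (0.24) without replicate 2 of either group, each among other alternatives. Genes that rose also numbered 3 of 7 centromere and kinetochore genes and 3 of 6 cytokinesis genes, where 25.9% of all genes rose. The 3 of 7 include SPC25, which was at -0.031 without replicate 1 at 24 h. BIRC5, which encodes survivin, the subunit that brings the complex to centromeres, had 242.1 and 226.5 CPM at 24 h against 149.8 and 152.4 CPM with DMSO (0.59 ± 0.10, edgeR adjusted p = 7.5e-05). KIF4A, a kinesin of the central spindle, had 151.4 and 149.3 CPM at 24 h against 93.4 and 98.2 CPM with DMSO (0.60 ± 0.08). NDC80 rose by 0.55 ± 0.09 here as well. These 3 sets of 24 h libraries lay above those with DMSO. None of PLK1 (-0.14 ± 0.07), CCNB1 (0.07 ± 0.08), CDK1 (-0.06 ± 0.10), AURKA (-0.13 ± 0.07), MKI67 (0.04 ± 0.09) and TOP2A (0.16 ± 0.12) was called. KIF2C (-0.63 ± 0.08), MAD2L1 (-0.31 ± 0.09) and CCNA2 (-0.19 ± 0.07) fell. The call of MAD2L1 ended without replicate 1 at 24 h (-0.24), and that of CCNA2 without either replicate at 24 h (-0.21 and -0.16), without replicate 1 of the DMSO group (-0.15) and with library size alone (-0.14).

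**Figure D3:**
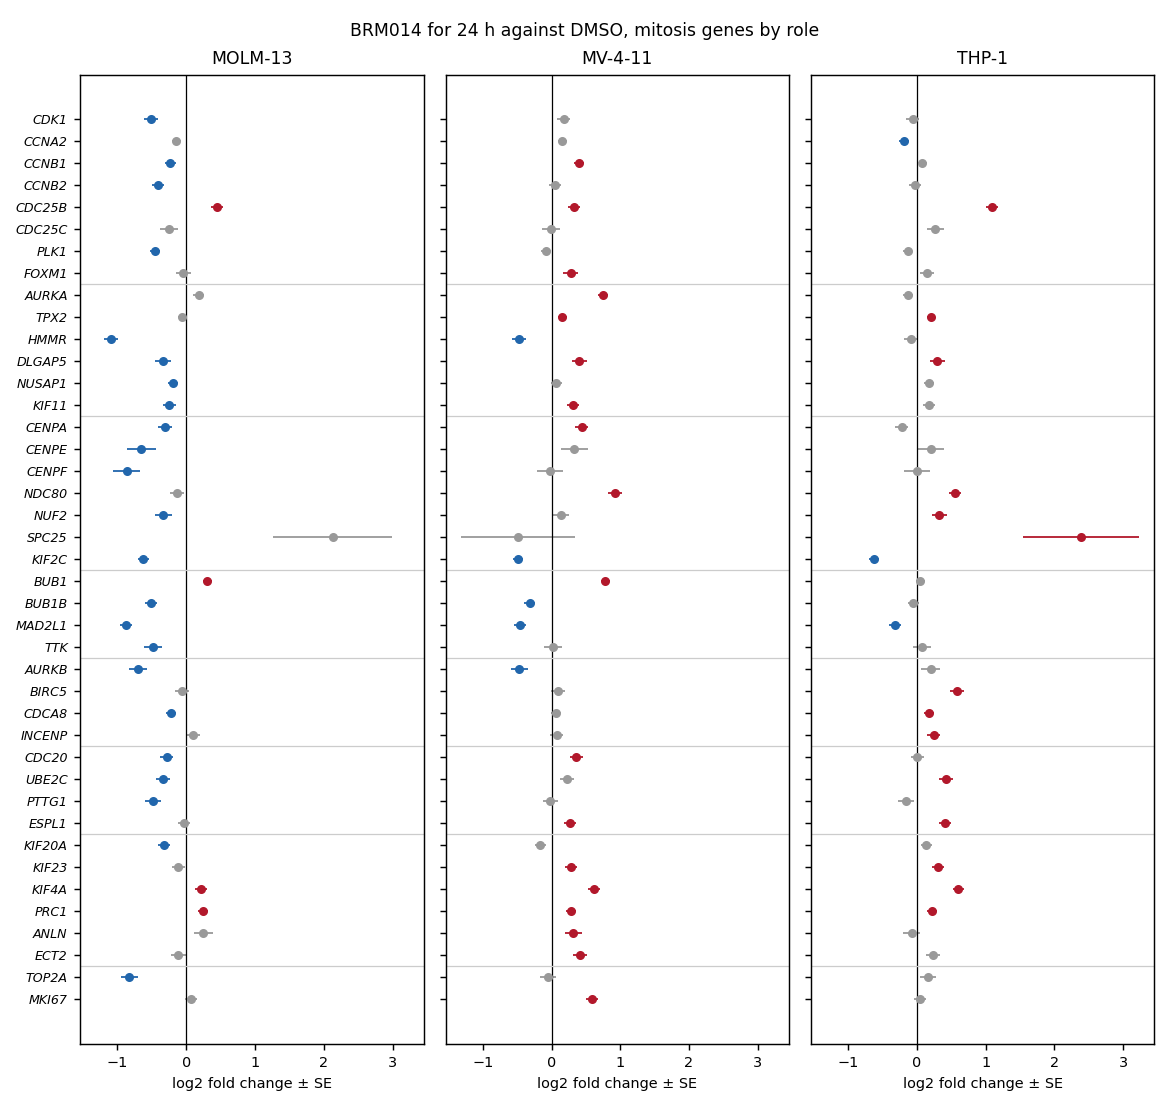
Log2 fold change ± standard error (horizontal axis) of each mitosis gene (vertical axis, groups of roles divided by lines) after 24 h of BRM014 against DMSO in each line. Blue points fell, red points rose and grey points were not called; MOLM-13 has 23 blue and 4 red points, MV-4-11 5 and 18, and THP-1 3 and 14.

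From 24 h to 72 h of BRM014 nearly all members fell in all 3 lines. Set against 24 h, 37 genes fell at 72 h in MOLM-13 (22.7% of all genes), 39 in MV-4-11 (16.9%) and 40 in THP-1 (16.5%). In all 3 lines at once 36 fell, where 6.16% of all genes did so. Medians were -0.79 in MOLM-13, -1.05 in MV-4-11 and -1.003 in THP-1. No member was higher at 72 h than at 24 h in MOLM-13 (20.8% of all genes) or THP-1 (16.2%) by edgeR, by DESeq2 or at an unadjusted p under 0.05. CDC25B rose in MV-4-11 (18.6% of all genes), and lost that call when any of the 4 libraries was left out (0.21 to 0.28). BUB1 was among the deepest falls of each line, at -1.42 ± 0.07 in MOLM-13, -1.47 ± 0.07 in MV-4-11 and -1.23 ± 0.07 in THP-1. Others were AURKA in MOLM-13 (-1.47 ± 0.08), CDC20 in MV-4-11 (-1.57 ± 0.10) and PLK1 in THP-1 (-1.23 ± 0.07). In THP-1, the folds of the 41 genes lay between -1.23 and -0.55.

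Some genes that were already low at 24 h in MOLM-13 showed no further call. TOP2A had 286.0 and 315.2 CPM at 72 h against 324.4 and 289.0 CPM at 24 h (-0.10 ± 0.12, edgeR adjusted p = 0.57). CENPF had 140.2 and 137.2 CPM at 72 h against 130.4 and 116.1 CPM at 24 h (0.10 ± 0.20), and CENPE 40.5 and 49.6 CPM at 72 h against 40.2 and 36.0 CPM at 24 h (0.18 ± 0.21). In MV-4-11 these genes changed by -0.99 ± 0.12 (TOP2A), -1.19 ± 0.19 (CENPF) and -1.11 ± 0.21 (CENPE) between the times. In THP-1 the changes were -0.90 ± 0.12, -0.88 ± 0.19 and -1.003 ± 0.20. The difference between lines in the change between times was not tested.

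At 72 h the size of the change differed between lines for 22 of 41 genes, where the test called 52.9% of all genes, a background share close to that of the members. The fall was smaller in MV-4-11 than in MOLM-13 for 15 genes and larger for 1, KIF20A, beside 20.8% and 15.0% of all genes. In THP-1 it was smaller than in MOLM-13 for 13 and larger for 2, MKI67 and CDC25B (for CDC25B, a smaller rise), beside 18.3% and 15.9%. MAD2L1 (0.51 ± 0.13 in MV-4-11 and 0.88 ± 0.13 in THP-1, each minus MOLM-13) and PTTG1 (0.88 ± 0.17 and 0.75 ± 0.17) were among the widest differences. AURKA differed by 0.86 ± 0.11 between MV-4-11 and MOLM-13. KIF20A lost its call without replicate 2 of either MOLM-13 group, either MV-4-11 library at 72 h or replicate 1 of MV-4-11 DMSO. The count of MKI67 and CDC25B was 0 or 1 without any one library of THP-1 and MOLM-13 at 72 h or with DMSO, other than replicate 1 of MOLM-13 DMSO.

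CDC25B, which encodes a phosphatase that starts CDK1 activation at centrosomes, rose at 72 h in MOLM-13 and MV-4-11, where nearly all other members fell. At 24 h it rose in each line, while in MV-4-11 and THP-1 more members rose than fell. From 24 h to 72 h in THP-1 it fell with the other members. In MOLM-13 it had 131.2 and 140.9 CPM at 24 h and 153.1 and 153.1 CPM at 72 h, against 82.4 and 100.3 CPM with DMSO. The changes were 0.45 ± 0.08 and 0.55 ± 0.08. In MV-4-11 it had 97.2 and 102.2 CPM at 24 h and 117.6 and 117.9 CPM at 72 h, against 74.6 and 76.9 CPM with DMSO, with changes of 0.33 ± 0.08 and 0.58 ± 0.08. In both lines each treated library lay above both DMSO libraries. In THP-1 it had 54.4 and 54.7 CPM at 24 h and 30.7 and 29.8 CPM at 72 h, against 25.7 and 24.0 CPM with DMSO. The THP-1 rise at 24 h was 1.09 ± 0.09 (edgeR adjusted p = 4.4e-09), and the value at 72 h was 0.20 ± 0.09 (adjusted p = 0.0714), called higher with library size alone (0.29). CDC25C, the related phosphatase of mitotic entry, fell at 72 h by 0.97 ± 0.14 in MOLM-13, 0.59 ± 0.13 in MV-4-11 and 0.48 ± 0.13 in THP-1, the last of which lost its call without replicate 2 at 72 h (-0.35).

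SPC25, a subunit of the NDC80 complex, was the one member whose replicates disagreed widely. It had 20.5 and 5.59 CPM in MOLM-13 at 24 h, against 3.56 and 1.89 CPM with DMSO. In THP-1 it had 31.3 and 3.25 CPM at 24 h and 19.1 and 3.06 CPM at 72 h, against 3.44 and 2.97 CPM with DMSO. Replicate 1 was the high one in each of these 3 treated groups. In MV-4-11 it had 4.16 and 4.75 CPM at 24 h and 2.56 and 4.93 CPM at 72 h, against 2.61 and 9.15 CPM with DMSO, and replicate 2 was the higher in each. Its call at 24 h in THP-1 (2.39 ± 0.84, edgeR adjusted p = 0.0236) ended without that library, at -0.03, and without either DMSO replicate, at 2.49 and 2.29. The fall from 24 h to 72 h in MOLM-13 (-3.17 ± 0.91) ended without replicate 1 at 24 h (-1.95) or replicate 2 at 72 h (-3.06). On GRCh38 (GENCODE v29), SPC25 overlaps NOSTRIN and G6PC2 on the opposite strand, and the strand of counting is not given in the sources used here.

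**Figure D4:**
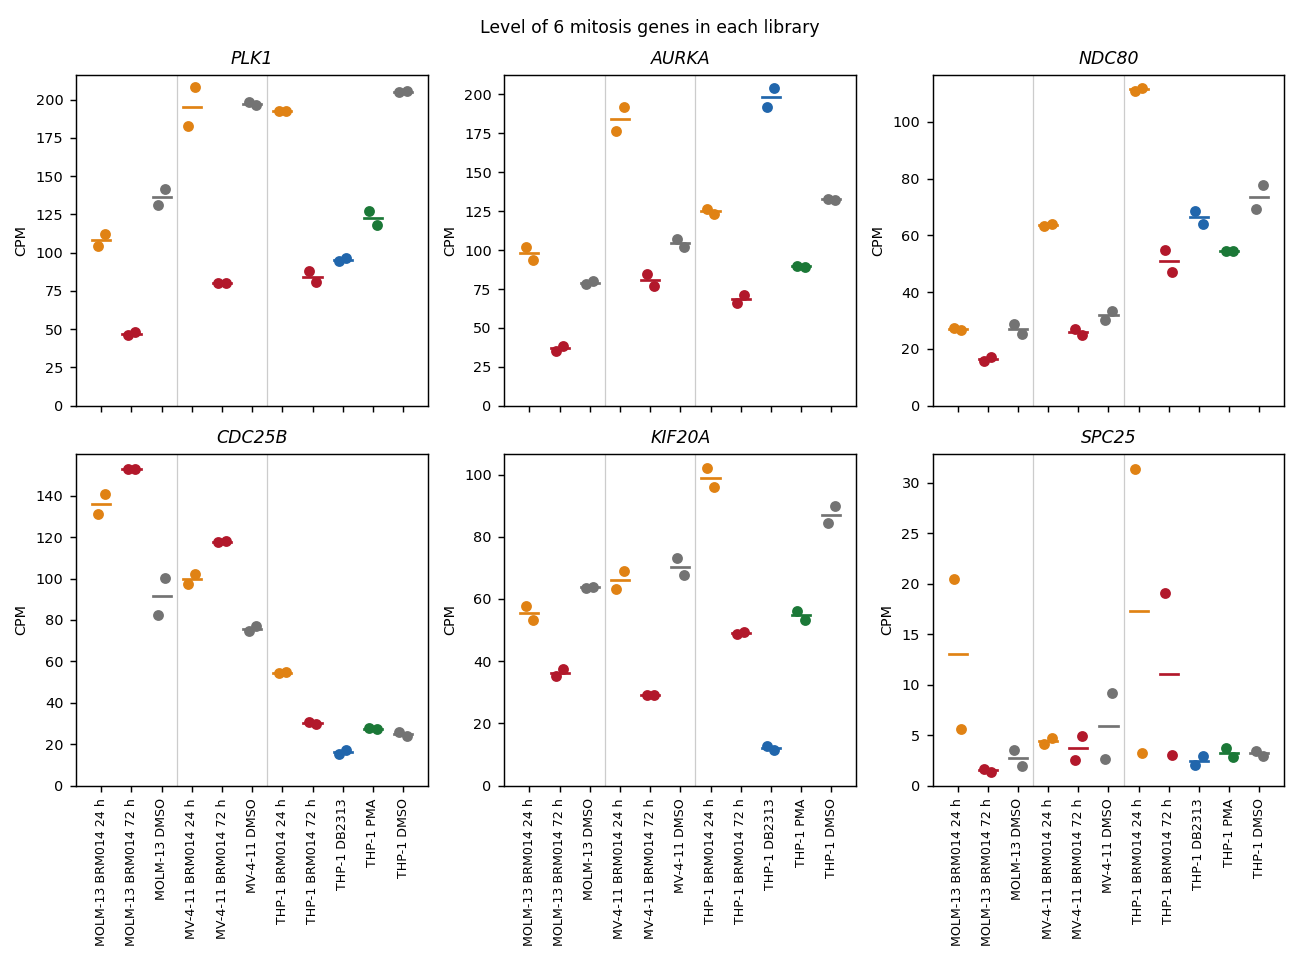
Levels in CPM (vertical axes, from 0) of 6 mitosis genes in each library (points) of the 11 groups (horizontal axis), with bars at the mean of 2 libraries. PLK1 is lowest at 72 h of BRM014 in every line, AURKA and NDC80 peak at 24 h in MV-4-11 within that line, CDC25B is above DMSO with BRM014, KIF20A is near 12 CPM with DB2313, and SPC25 is high in single libraries.

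DB2313 in THP-1 gave a mixed pattern. It lowered 27 of the 41 genes and raised 4, where 29.5% of all genes fell and 35.9% rose. The median of the members was -0.44, against 0.14 for all genes. The DB2313 libraries had 18937 and 18823 genes with a read, against 17505 and 17618 in the DMSO libraries; the part of this in the results was not tested. Summed markers also differed, with the same caveat. Myeloid markers were at 1973 and 1882 CPM with DB2313 against 3164 and 3000 CPM with DMSO, epithelial markers at 45.8 and 46.5 CPM against 1.63 and 1.93 CPM, and fibroblast markers at 35.3 and 39.0 CPM against 2.19 and 2.57 CPM. KIF20A, a kinesin needed for cytokinesis, had 12.6 and 11.5 CPM with DB2313 against 84.4 and 89.9 CPM with DMSO (-2.93 ± 0.09, edgeR adjusted p = 1.1e-15). No other group had KIF20A below 29.1 CPM. CENPE had 48.0 and 54.5 CPM with DB2313 against 154.2 and 136.3 CPM with DMSO (-1.58 ± 0.20), and MAD2L1 50.3 and 51.9 CPM against 110.9 and 111.0 CPM (-1.19 ± 0.09). The DB2313 and DMSO libraries did not overlap for these 3, which were named for their large called falls. KIF20A overlaps BRD8 and CDC23 on the opposite strand.

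All 4 checkpoint genes fell with DB2313, as did 5 of 7 centromere and kinetochore genes and 3 of 4 chromosomal passenger genes. PLK1 fell to 94.3 and 96.5 CPM with DB2313, against 204.6 and 205.4 CPM with DMSO (-1.18 ± 0.07), and MKI67 fell by 0.55 ± 0.09. AURKA rose, at 192.1 and 204.3 CPM with DB2313 against 132.7 and 132.4 CPM with DMSO (0.51 ± 0.07, edgeR adjusted p = 4.1e-06), and this call held under every alternative. CCNB1 (0.23 ± 0.08), HMMR (0.23 ± 0.10) and KIF23 (0.20 ± 0.09), a kinesin of the central spindle, rose as well. Their calls ended under several alternatives: 1 member rose without replicate 1 of the DMSO group, and 2 without its replicate 2 or without either DB2313 library. CDK1 (0.19 ± 0.10), TOP2A (-0.11 ± 0.12) and CDC20 (0.11 ± 0.09) were not called, except that CDK1 was called higher with library size alone (0.27) and with RLE size factors (0.22). CDC25B, which rose with BRM014 at 24 h in this line, fell to 15.3 and 16.9 CPM with DB2313, against 25.7 and 24.0 CPM with DMSO (-0.69 ± 0.10).

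Set directly against DB2313, 72 h of BRM014 gave lower levels of 26 genes and higher levels of 4, beside 30.9% and 30.4% of all genes. AURKA had 66.3 and 71.0 CPM with BRM014 at 72 h against 192.1 and 204.3 CPM with DB2313 (-1.54 ± 0.07, edgeR adjusted p = 6.4e-13). HMMR was at -1.33 ± 0.10 on the log2 scale, CCNB1 was at -1.23 ± 0.08, and CDK1 at -1.07 ± 0.10. KIF20A was higher with BRM014, at 48.6 and 49.3 CPM against 12.6 and 11.5 CPM with DB2313 (2.01 ± 0.09). CDC25B (0.90 ± 0.10), CENPE (0.78 ± 0.20) and SPC25 (2.16 ± 0.86) were higher too, and SPC25 lost the call without replicate 1 at 72 h (0.295) and without either DB2313 library (1.97 and 2.40). PLK1 differed by -0.19 ± 0.07, a call that ended without replicate 2 at 72 h (-0.13) or without either DB2313 library (-0.18 and -0.19). MAD2L1 (0.12 ± 0.09), BUB1B (-0.10 ± 0.09) and TTK (-0.12 ± 0.13), checkpoint genes that fell with both agents against the shared DMSO libraries, were not called different between them.

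PMA lowered most of the set. In THP-1 with PMA, 32 of the 41 genes fell, beside 17.1% of all genes, with a median of -0.38 against -0.02 for all genes. No member rose by edgeR or DESeq2, beside 18.9% of all genes, and CDC25B was higher at an unadjusted p under 0.05. PLK1 had 127.3 and 117.8 CPM with PMA against 204.6 and 205.4 CPM with DMSO (-0.66 ± 0.07, edgeR adjusted p = 4.0e-07). CENPE had 89.9 and 76.7 CPM with PMA against 154.2 and 136.3 CPM with DMSO (-0.72 ± 0.20), a call that ended without replicate 1 of the DMSO group (-0.63). CENPA fell by 0.62 ± 0.10, CCNB1 by 0.50 ± 0.08, AURKA by 0.48 ± 0.07 and TOP2A by 0.48 ± 0.12. CDK1 (-0.17 ± 0.10) and MKI67 (-0.03 ± 0.09) were not called. The PMA libraries differed more from each other than other pairs did, where chi-square divided by its degrees of freedom, over genes, was 28.7, against 2.98 to 10.6 in the other pairs. MKI67 was at 325.5 and 252.1 CPM in them, and 16.0% and 12.4% of reads were assigned to no feature. Of the 32 falls, 20 held under every alternative. Myeloid markers summed to 11100 CPM in both PMA libraries against 3164 and 3000 CPM with DMSO. Much of the PMA sum was LYZ, which alone reached 8430 CPM. The part of these markers in the results was not tested. Set against 72 h of BRM014, PMA left 30 genes higher, beside 29.8% of all genes. KIF2C (1.11 ± 0.08), CCNA2, the S-phase and G2 cyclin (0.94 ± 0.07), and MKI67 (0.78 ± 0.09) led these. None was lower by edgeR or DESeq2, beside 30.4% of all genes, and ESPL1 was lower at an unadjusted p under 0.05. The count was 1 without replicate 2 of BRM014 at 72 h or replicate 1 of PMA.

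**Figure D5:**
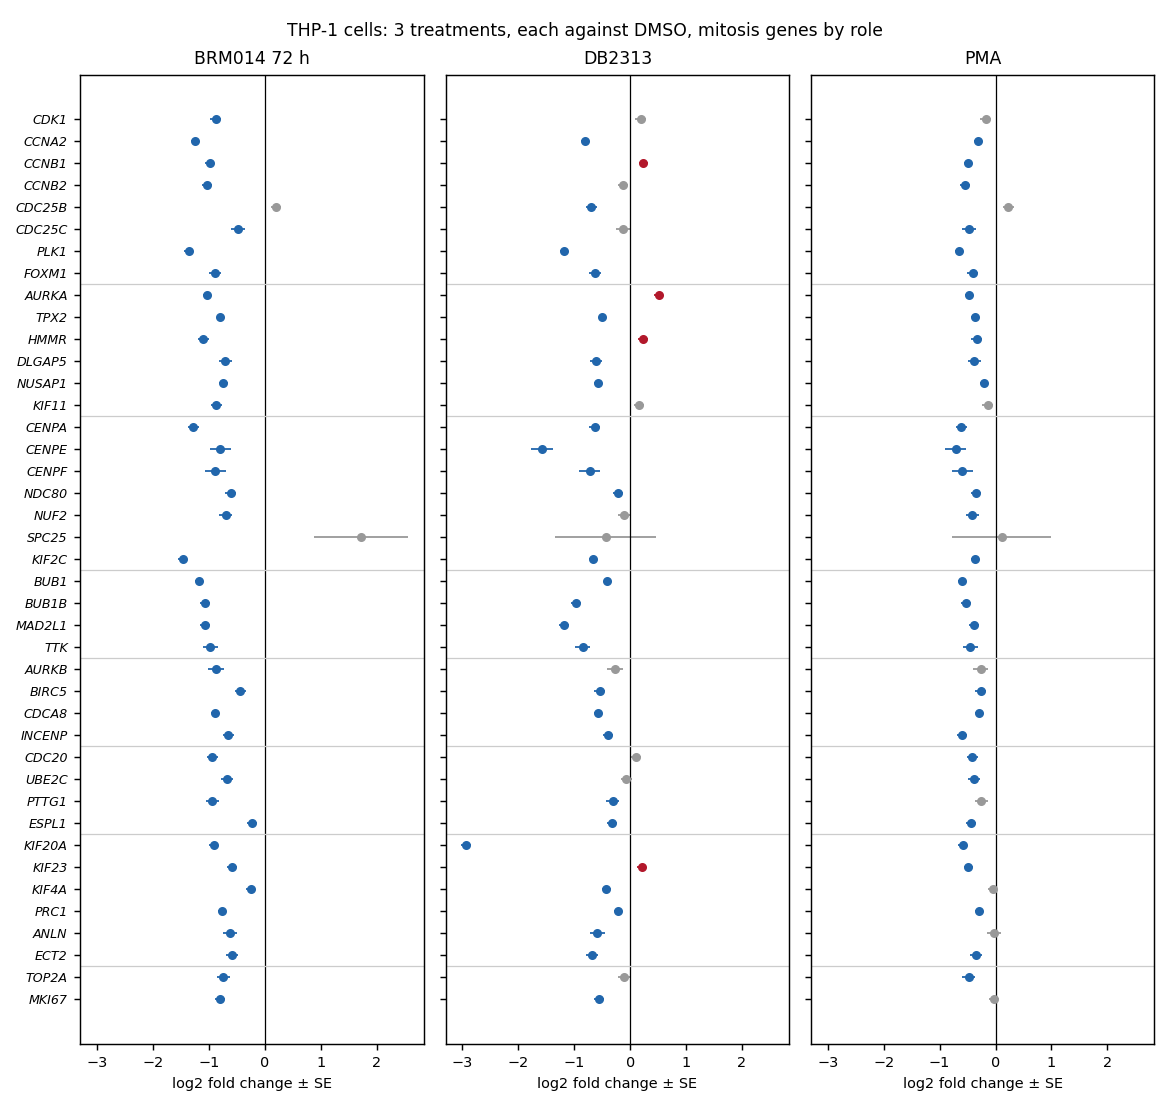
Log2 fold change ± standard error (horizontal axis) of each mitosis gene (vertical axis) in THP-1 with BRM014 for 72 h, with DB2313 and with PMA, each against the same 2 DMSO libraries. Blue points fell, red points rose and grey points were not called; KIF20A lies at -2.93 with DB2313, AURKA, CCNB1, HMMR and KIF23 are red there, and the PMA points lie between -0.72 and 0.23.

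Other genes of cell division were counted by list. At 72 h of BRM014 condensin genes, which compact chromosomes, fell in 7 of 8 in MOLM-13, 6 of 8 in MV-4-11 and 7 of 8 in THP-1, where 29.4%, 26.1% and 28.0% of all genes fell in these lines. Further centromere and kinetochore genes fell in 22, 22 and 25 of 28 in the same order, led by CENPH, a subunit of the inner kinetochore (-2.50 ± 0.12, -1.90 ± 0.12 and -1.64 ± 0.12). Entry and exit regulators outside the 41 fell in 18, 13 and 16 of 20, with the phosphatase CDC25A at -2.59 ± 0.11, -1.50 ± 0.10 and -1.44 ± 0.10. Cohesin genes, which hold sister chromatids together, fell in 4, 3 and 5 of 11, and core subunits of the anaphase-promoting complex in 7, 4 and 5 of 14 in the same order. Of these, the counts of 5 of 11 and 7 of 14 stood furthest above the shares of all genes, and the others lay near them. Spindle and cytokinesis genes outside the 41 fell in 12, 14 and 14 of 18. Genes of DNA replication, which act before mitosis, fell in 25, 23 and 25 of 25. Rises in the next list lay near or below the shares of all genes that rose, 30.3%, 28.4% and 30.9% in the same order. In the list of DREAM, B-MYB, NF-Y and E2F regulators 12, 9 and 11 of 23 fell and 8, 8 and 4 rose. It also holds CDKN1A, the inhibitor p21 of cyclin-dependent kinases, which rose by 2.83 ± 0.09 in MV-4-11 and 4.05 ± 0.09 in THP-1 and fell by 0.47 ± 0.08 in MOLM-13. In THP-1 CDKN1A had already risen by 3.40 ± 0.09 at 24 h of BRM014, and it rose by 3.68 ± 0.09 with DB2313 and 2.51 ± 0.09 with PMA. Its part in the results was not tested.

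At 24 h, 22.7%, 23.6% and 25.9% of all genes rose in MOLM-13, MV-4-11 and THP-1, and 23.5%, 22.4% and 24.1% fell; the counts that follow are read against these shares. Cohesin genes rose in 7 of 11 in MV-4-11, in 4 and with 1 fall in THP-1, and in 1 with 3 falls in MOLM-13. Spindle and cytokinesis genes outside the 41 rose in 8 and fell in 1 of 18 in MV-4-11, rose in 6 and fell in 1 in THP-1, and rose in 3 and fell in 7 in MOLM-13. Among them KIF14, a kinesin of cytokinesis, rose by 1.40 ± 0.15 in MV-4-11. Condensin genes rose in 3 and fell in 1 of 8 in MV-4-11 and rose in 1 and fell in 3 in MOLM-13, while in THP-1 the edgeR adjusted p of the 8 genes ran from 0.145 for NCAPD3 to 0.988 for NCAPH2. Core subunits of the anaphase-promoting complex rose in 3 and fell in 3 of 14 in MV-4-11, rose in 1 and fell in 3 in THP-1, and rose in 2 and fell in 6 in MOLM-13. The DREAM, B-MYB, NF-Y and E2F list rose in 13 and fell in 3 of 23 in MV-4-11, rose in 4 and fell in 7 in THP-1, and rose in 12 and fell in 5 in MOLM-13. In THP-1 DNA replication genes fell in 20 of 25 (median -0.63), with the helicase subunit MCM3 at -1.38 ± 0.06, while 14 mitosis genes rose and 3 fell. In MV-4-11 replication genes rose in 6 and fell in 9 of 25, and in MOLM-13 they rose in 2 and fell in 14. Entry and exit regulators rose in 12 and fell in 1 of 20 in MV-4-11, rose in 9 and fell in 3 in THP-1, and rose in 2 and fell in 3 in MOLM-13. Kinetochore genes outside the 41 rose in 2 and fell in 6 of 28 in THP-1, rose in 6 and fell in 4 in MV-4-11, and rose in 1 and fell in 14 in MOLM-13; the THP-1 and MV-4-11 counts lay near or below the shares of all genes. CENPH fell in each line at 24 h, by 1.08 ± 0.11 in MOLM-13, 1.06 ± 0.11 in MV-4-11 and 0.73 ± 0.11 in THP-1. Core subunits of the anaphase-promoting complex fell with DB2313 in 12 of 14, condensin genes in 8 of 8 and replication genes in 23 of 25. Of all genes, 29.5% fell with DB2313. With PMA these 3 lists fell in 2 of 14, 6 of 8 and 17 of 25, where 17.1% of all genes fell. Differences between a list and the 41 genes were not tested.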

How the data were processed

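RNA was extracted with TRIzol, enriched for polyadenylated transcripts and sequenced, per the labels' protocols. The authors deposited raw counts per gene symbol for each of the 22 libraries. HISAT2 2.1.0, HTSeq, DESeq2 and hg38 are named in the submitters' processing notes; the gene annotation and the strand of counting are not given in the sources used here. The 5 summary lines of each file were left out; reads with no feature, one of these lines, made up 12.0% to 19.2% of the total.

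From these counts, 1 quasi-likelihood model was fitted in edgeR 4.0.16 (R 4.3.3) to all 22 libraries, with a coefficient for each of the 11 groups, TMM scaling and genes kept by filterByExpr at a minimum count of 10. It had 11 residual degrees of freedom. P-values were adjusted by Benjamini-Hochberg over all 16794 genes. The standard error is the fold change over the square root of F. Differences between lines were contrasts of that fit. DESeq2 1.42.0, other scalings, no filter, the replicate block, fewer libraries and each library left out were the alternatives. The scripts were tested on simulated counts. Overlaps between genes were read from GENCODE v29.

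The 41 members and the other lists were chosen with earlier results of these data known. Named by rule were the 3 largest called changes in each direction of a comparison, PLK1, CCNB1, CDK1, AURKA, MKI67 and TOP2A, exceptions of 5 or fewer, and from other lists the 2 largest called changes. Other genes and list members given values were named for their role after their values were seen.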

Additional observations from a re-analysis of the deposited data

Results flagged for a closer look

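For 9 gene and line pairs the effect of 24 h of BRM014 was called in opposite directions in 2 lines, and edgeR's test of the difference itself passed the threshold for each. None of the MOLM-13 falls in these pairs kept its call under every alternative. CCNB1 rose in MV-4-11 (215.3 and 219.6 CPM at 24 h, 154.1 and 159.6 CPM with DMSO) and fell in MOLM-13 (154.6 and 141.1 CPM at 24 h, 163.6 and 154.9 CPM with DMSO). Its effect differed by 0.633 ± 0.11 on the log2 scale. In MOLM-13 the higher treated library and the lower DMSO library were almost level, and in MV-4-11 the groups lay well apart.

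MV-4-11 minus MOLM-13, the effect also differed for DLGAP5 (0.742), a spindle protein, KIF11 (0.559), the kinesin that pushes spindle poles apart, CENPA (0.752) and CDC20 (0.648). THP-1 minus MOLM-13, it differed for DLGAP5 (0.641), NUF2 (0.659, and not called at 0.459 without replicate 1 of MOLM-13 DMSO), a partner of NDC80, CDCA8 (0.404), the borealin subunit of the passenger complex, and UBE2C (0.764), the ubiquitin-conjugating enzyme of the anaphase-promoting complex. With library size alone as the scaling, 1 gene had opposite calls between MV-4-11 and MOLM-13, and 0 between THP-1 and MOLM-13.

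Any difference between the lines was called for 33 members at 24 h and 22 members at 72 h, beside 43.5% and 52.9% of all genes. Groups of 2 libraries were too small for a search for single outlying libraries.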

How the results depend on the processing

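The falls at 72 h against DMSO and against 24 h kept their direction in all 3 lines in every fit run; leaving out 1 library at a time, 33 to 38 members fell at 72 h in all lines and 31 to 36 from 24 h to 72 h. The cause of the changes below was not tested. Library size alone moved the median of all genes by 0.126 (MOLM-13, 24 h), 0.191 (MOLM-13, 72 h), -0.169 (PMA against 72 h of BRM014), -0.133 and -0.106 (72 h effect in MV-4-11 and THP-1, each minus MOLM-13). With it, 7 members were higher and 13 lower in MOLM-13 at 24 h, 1 rose in THP-1 at 72 h, 1 was lower with PMA than with 72 h of BRM014, 15 had a higher 24 h effect in THP-1 than in MOLM-13 and 4 a lower 72 h effect. Opposite calls at 24 h numbered 1 between MOLM-13 and MV-4-11 and 0 between MOLM-13 and THP-1. Without the filter, 1 rose in THP-1 at 72 h, 2 rose with DB2313, 1 was lower with PMA than with BRM014, 0 were higher at 72 h than 24 h in MV-4-11, 1 had a lower 24 h effect in MV-4-11 than in MOLM-13, and 0 a lower one in THP-1.

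With libraries of the lines compared alone, 9 rose in THP-1 at 24 h, 1 rose with DB2313, 1 had a lower 24 h effect in MV-4-11 than MOLM-13, 17 a higher and 1 a lower one in THP-1; for the test across all 3 lines no separate fit was made. Without the PMA and DB2313 libraries, 6 fell in THP-1 at 24 h, and 4 had a lower 72 h effect in THP-1 than MOLM-13. Replicate numbers did not pair the libraries (correlations of deviations from -0.117 to 0.087); with the replicate number as a block, 0 members had a lower 24 h effect in THP-1 or a lower 72 h effect in MV-4-11 than in MOLM-13, and the other counts stayed within 1.5 times.

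With 1 library left out, the counts were as follows. MOLM-13 at 24 h had 2 to 6 higher and 14 to 20 lower, MV-4-11 had 11 to 15 higher, and THP-1 8 to 10 higher and 1 to 3 lower. At 72 h 0 to 1 rose in THP-1. DB2313 raised 1 to 2, and 0 to 1 were lower with PMA than with BRM014 at 72 h. In MV-4-11, 0 to 0 were higher at 72 h than at 24 h. A higher 24 h effect than in MOLM-13 was called for 15 to 23 members in MV-4-11 and 15 to 22 in THP-1, and a lower one in THP-1 for 0 to 2. A lower 72 h effect was called for 0 to 1 in MV-4-11 and 0 to 2 in THP-1. Opposite calls numbered 1 to 6 with MV-4-11 and 1 to 4 with THP-1. Of single genes, SPC25 reversed in THP-1 at 24 h without replicate 1 at 24 h (-0.031) and was at 3.253 without replicate 2.

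With 2 libraries a group, unclear origin of replicates and a shared DMSO group of unstated time, small changes are uncertain. Depth was no limit for most members, SPC25 being the lowest.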
